A study of Mus musculus with 14 samples.

Results

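The cytosolic sulfotransferases are the enzymes that transfer a sulfate group to steroids, bile acids, phenols, amines and drugs. The 10 genes described here were Sult2a1, Sult2a2, Sult2a4, Sult3a1, Sult3a2, Sult1a1, Sult1b1, Sult1d1, Sult1e1 and Sult5a1. Their probes were taken as those whose RefSeq accession in the array files belongs to one of these symbols, which gave 14 probes for the 10 genes, of 39429 probes and 19751 named genes on the array. The expression values played no part in this rule, although the genes were listed with earlier results of these data known. Sult2a1, Sult2a2 and Sult2a4 were down regulated 69.6- to 106-fold in male liver between 3 and 8 wk of age by their main probes, where the lowest value rests on 1 array and a second probe of Sult2a4 gave 14-fold. Sult3a1 and Sult3a2 were up regulated 14.7- and 17.3-fold in female liver over the same time and down regulated in male liver, although both female calls were lost without 1 of the arrays (F8/F3 replicate 2) and Sult3a2 lost its calls in both sexes when shared pools entered the fit. Sult1a1 and Sult1d1 were higher in female liver by smaller ratios from 4 wk on, and Sult1b1 was up regulated with age in both sexes.

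Sulfation is a conjugation reaction of liver in which the donor PAPS gives its sulfate to a hydroxyl or amino group, and the product is as a rule more soluble in water and less active. The SULT2A enzymes act on hydroxysteroids such as DHEA and on bile acids, the SULT1 enzymes act on phenols, catechols, thyroid hormone and estrogens, and the mouse SULT3A enzymes act on amines. In rodents many hepatic sulfotransferases are known to differ between the sexes, and the temporal pattern of plasma growth hormone, which acts in hepatocytes through the transcription factor STAT5b, is known to set much of the sex difference of liver.

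Liver RNA of male (M) and female (F) CD-1 mice aged 3, 4 or 8 wk was compared on 14 Agilent 4x44k v2 mouse arrays, and no treatment is named in the labels. Each RNA pool held liver of 5 mice at 3 wk and of 6 mice at 4 and 8 wk, so that the spread between animals within a pool was not measured. There were 7 comparisons, in which the first group named is divided by the second. The sexes were compared at each age (M3/F3, M4/F4 and M8/F8), 8 wk was compared with both younger ages in female (F8/F3 and F8/F4) and in male liver (M8/M3 and M8/M4), and each comparison had 2 arrays with separate pools and exchanged dyes (replicates 1 and 2). The sex comparisons ask at which age the sexes differ, and the age comparisons ask how each sex changes up to young adulthood. The same pools were used again in several comparisons, so the comparisons are not independent of each other.

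Values are log2 ratios, where 1 stands for a ratio of 2 and a negative value means lower in male or lower at 8 wk. A gene was called where the limma adjusted p was below 0.05, the ratio was above 1.5 or below its inverse, and at least 1 group was well above background on both arrays. Levels are normalized intensities in arbitrary units for 1 probe, the probe with the highest mean signal, and they do not allow a comparison between genes. The level of a single pool carries a dye bias, because pools 1 of M3 and M4 were always red and pool 1 of F8 was always green, whereas the mean of 2 pools is balanced for dye. Levels and log2 ratios were normalized in different ways, so that a ratio of levels differs somewhat from the ratio given.

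The probes of the Sult2a genes are shown first, because their targets are so alike that each signal may hold RNA of a neighbouring gene. The main probe of Sult2a4 overlapped that of Sult2a1 by 54 bases, of which 51 were identical (94.4%), and the second probe of Sult2a2 overlapped that of Sult2a1 by 59 bases, of which 54 were identical (91.5%). A window of 30 bases from these overlaps is shown, in which capitals mark the bases that differ from Sult2a1. It holds 1 of the 3 differing bases of Sult2a4 and all 5 of Sult2a2.
Sult2a1: ttgtgtatcttgaatacctagatgtggtca
Sult2a4: ttCtgtatcttgaatacctagatgtggtca
Sult2a2 (second probe): ttCtAtatcttgaatacctGAatAtggtca
The main probe of Sult2a2 lay in another stretch, where it overlapped the probe of Sult2a6 by 42 bases with 40 identical (95.2%). Capitals mark the 2 bases by which they differ.
Sult2a2 (main probe): ggaagatcgggttactaatggcttgaagct
Sult2a6: ggaagatcAgAttactaatggcttgaagct
The array files assign the main probe of Sult2a2 to Sult2a2 and the second probe of Sult2a4 to Sult2a4, whereas the study's probe table names the former Sult2a6 and the latter Sult2a3. The 1 probe of Sult3a2 is named Gm4794 there, so that all values given for Sult3a2 rest on the assignment in the array files. Cross-hybridization was not tested. Values of Sult2a1, Sult2a2 and Sult2a4 are therefore uncertain as to which of these genes they come from.

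Between 55.2% and 77.2% of the 43020 spots per array that were not controls were well above background in 1 channel (median 66.5%), no spot was saturated, and the number of arrays limits the precision. Xist was called lower and Ddx3y, Uty and Eif2s3y were called higher in male in all 3 sex comparisons, as the labels would have it. The arrays lay on 4 slides scanned on 2 days, with all arrays that compared the sexes and those of M8/M3 on the first day and the other age comparisons on the second. The 7 hepatocyte markers measured were well above background in every comparison, and none was called between the sexes. With age, Alb was called lower and Cyp2e1 higher in M8/M3 and M8/M4, Serpina1a higher in M8/M3 and Apoc3 higher in F8/F3. Other cells also moved with sex and age. Of 5 Kupffer cell markers, 3 (Clec4f, Marco and Timd4) were called lower in M8/F8, and their summed level was 26900 to 33600 in the M8 pools and 41900 to 45800 in the F8 pools. All 5 markers of dividing cells were called lower at 8 wk in the 4 age comparisons (summed level 11600 to 18600 at 3 wk and 1620 to 1760 at 8 wk). Of 5 stellate cell markers, Col1a1 and Col3a1 were called lower at 8 wk in the 4 age comparisons and Reln in M8/M3. Dcn and Lrat were not called. The summed level of all 5, in which bright genes weigh most, was 124000 to 172000 at 3 and 4 wk and 70100 to 89900 at 8 wk. The part of these cells in the results below was not tested. In whole liver fewer cells of a type and less RNA per cell cannot be told apart.

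No sulfotransferase was called between the sexes at 3 wk, and 7 of 10 were called higher in female at 4 wk. In M3/F3 limma called 0 of 10 genes, against 0.349% of all 19751 genes, and 3 genes (Sult2a1, Sult2a2 and Sult1d1) had an unadjusted p under 0.05. The error-weighted average called 1 of them, Sult2a2, and a fit of 6 group means in place of 7 comparisons called 2 genes, Sult2a1 and Sult2a4. In M4/F4 the 7 genes called were Sult2a1, Sult2a2, Sult2a4, Sult3a1, Sult3a2, Sult1a1 and Sult1d1, against 1.05% of all genes in either direction and 0.643% higher in female. The same 7 genes were called in M8/F8, where 4.38% of all genes were called and 2.56% were higher in female. No member was called higher in male. The median log2 ratio of the 10 genes was -3.22 in M8/F8, close to the -3.29 of M4/F4, whereas M3/F3 gave -0.22. The median of all genes was 0 at each age.

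**Figure D1:**
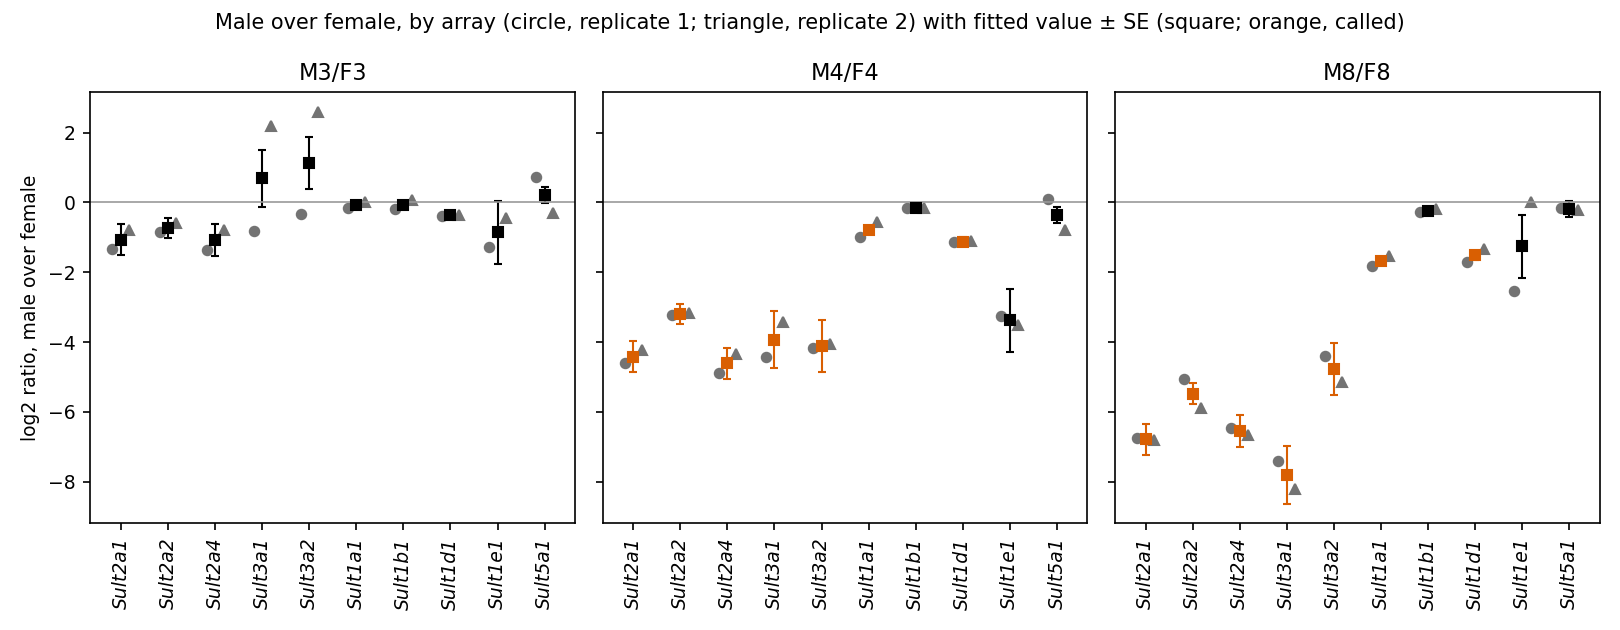
The log2 ratio of male over female (vertical axis) is plotted for each of the 10 genes at 3, 4 and 8 wk, with circles for array 1, triangles for array 2, and squares with bars for the fitted value ± SE (orange where the gene was called). No square is orange at 3 wk, and 7 are orange and below 0 at 4 wk and at 8 wk, where Sult3a1 is lowest at -7.81.

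With age, members were called in M8/M3, M8/M4 and F8/F3. In M8/M3, 7 genes were called against 13.1% of all genes, of which 6 were lower at 8 wk (Sult2a1, Sult2a2, Sult2a4, Sult3a1, Sult3a2 and Sult1a1, against 7.35%) and 1, Sult1b1, was higher (against 5.71%). In M8/M4, 5 genes were called, all lower at 8 wk (Sult2a1, Sult2a2, Sult2a4, Sult3a1 and Sult1a1), against 8.18% of all genes in either direction and 4.83% lower. In F8/F3, 6 genes were called against 8.75% of all genes. Of these 5 were higher at 8 wk (Sult3a1, Sult3a2, Sult1b1, Sult1d1 and Sult5a1, against 3.79%), and Sult2a4 was lower (against 4.96%). In F8/F4 limma called 0 genes, against 4.53% of all genes, and 2 genes (Sult1b1 and Sult1d1) had an unadjusted p under 0.05. The error-weighted average called 0 there. When the pools shared between comparisons entered the covariance of the fit, 0, 7 and 7 members were called between the sexes at 3, 4 and 8 wk, against 0.284%, 1% and 4.01% of all genes in that fit. It called 7 in M8/M3 (against 11.9%) and 5 in M8/M4 (7.14%), and for female liver 4 in F8/F3 (7.89%) and 0 in F8/F4 (3.98%). In M4/F4 and M8/M3 these were not the same genes as before, since Sult3a2 was lost in both, Sult1e1 was gained in M4/F4 and Sult5a1 was gained in M8/M3.

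**Figure D2:**
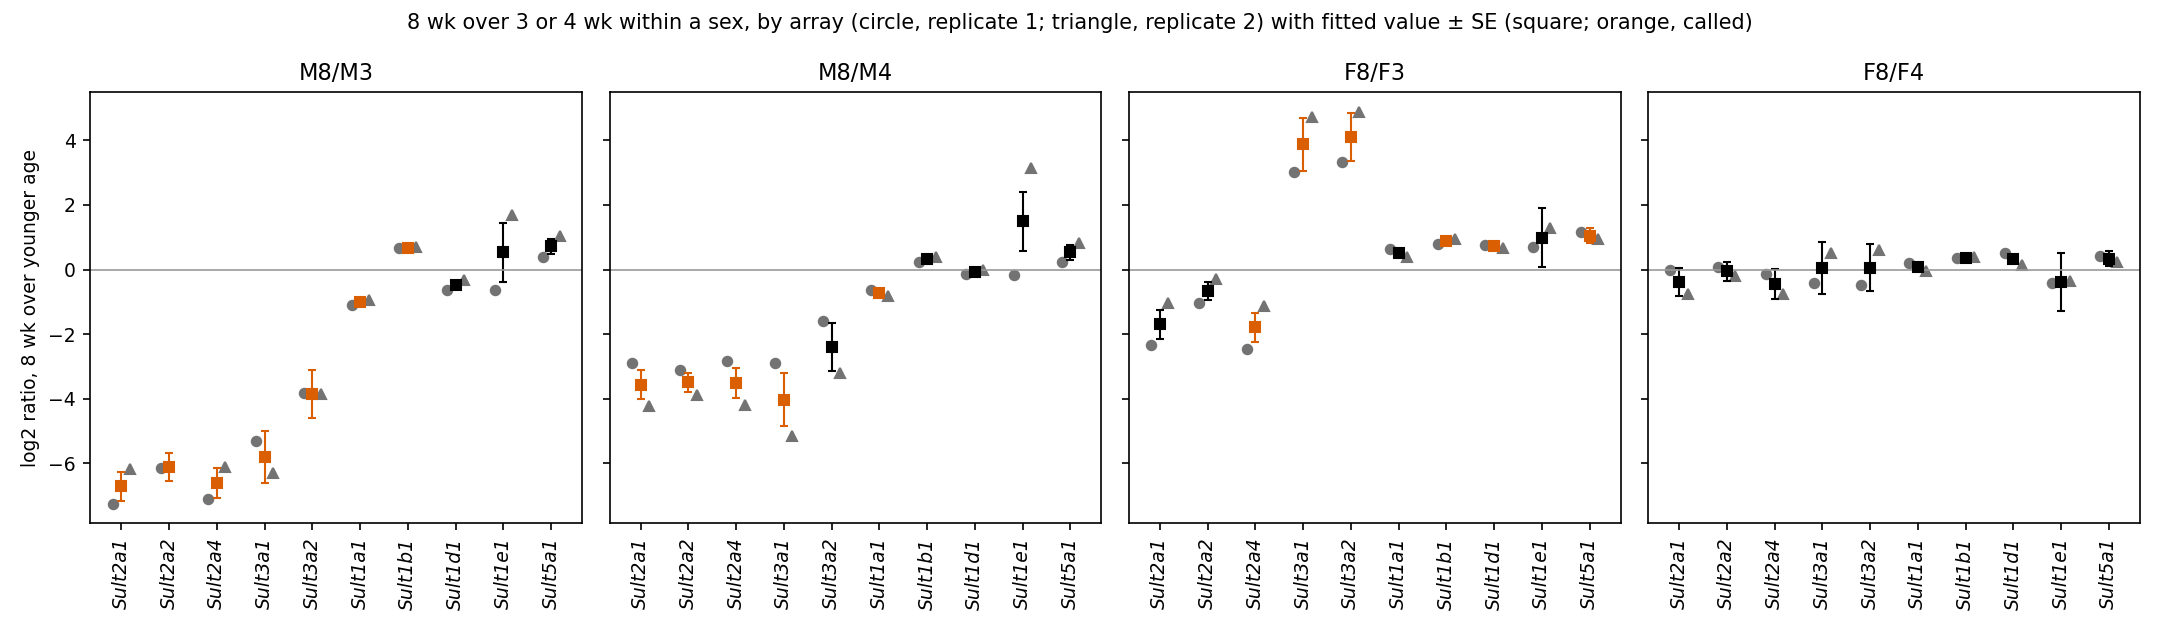
The log2 ratio of 8 wk over the younger age (vertical axis) is plotted for each gene in male (M8/M3, M8/M4) and female (F8/F3, F8/F4) liver, with circles for array 1, triangles for array 2, and squares with bars for the fitted value ± SE (orange where called). The Sult2a and Sult3a genes lie between -2.40 and -6.72 in male liver, the Sult3a genes lie near 4 in F8/F3, and no gene is called in F8/F4.

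Sult2a1, a hydroxysteroid sulfotransferase, had levels of 162000 and 108000 in the F3 pools, 50200 and 91700 in F4, 40200 and 62300 in F8, 85500 and 64600 in M3, 2870 and 6070 in M4, and 590 and 719 in M8. The M4 pools lay below all female and M3 pools, and the M8 pools lay below the M4 pools. Female liver contained 21.3-fold more Sult2a1 RNA at 4 wk (log2 ratio -4.60 and -4.23 on the arrays, fitted -4.41 ± 0.45 (SE), limma adjusted p = 0.00137). At 8 wk the ratio was 111-fold (-6.76 and -6.82 on the arrays, adjusted p = 0.000318). At 3 wk the log2 ratios were -1.35 and -0.79 (adjusted p = 0.185), so that both arrays were lower in male without passing the test. In male liver Sult2a1 was down regulated 106-fold in M8/M3 (log2 ratio -7.25 and -6.20 on the arrays, fitted -6.72 ± 0.45, adjusted p = 0.000326) and 11.9-fold in M8/M4 (-2.91 and -4.23, fitted -3.57 ± 0.45, adjusted p = 0.00304). Both calls were kept without 1 array, with -6.06 and -7.39 without M8/M3 replicates 1 and 2, and -4.30 and -2.85 without M8/M4 replicates 1 and 2. In female liver the log2 ratio was -1.69 ± 0.45 in F8/F3, with an adjusted p of 0.0505, and -0.39 ± 0.45 in F8/F4.

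Sult2a4 followed Sult2a1 closely, with a Pearson correlation of 0.999 between both probes over the 14 arrays, which share pools and, as shown above, most of the probe sequence. Its levels were 67000 and 35900 in F3, 13500 and 30700 in F4, 12400 and 18800 in F8, 28100 and 18200 in M3, 675 and 1580 in M4, and 234 and 278 in M8. The 4 female pools of 4 and 8 wk overlapped the M3 pools and lay far above M4 and M8. The female excess was 24.4-fold at 4 wk (log2 ratio -4.61 ± 0.45, adjusted p = 0.00123) and 94.2-fold at 8 wk (-6.56 ± 0.45, adjusted p = 0.000369). In male liver it was down regulated 98.1-fold from 3 to 8 wk (-6.62 ± 0.45, adjusted p = 0.000358), and the call was kept at -5.99 without M8/M3 replicate 1 and at -7.25 without replicate 2. In F8/F3 the main probe was called lower (-1.79 ± 0.45, adjusted p = 0.043), but the call was lost in 11 of 14 fits that each left out 1 array (largest adjusted p = 0.374, without F8/F3 replicate 1). It was also lost with a replicate block (adjusted p = 0.0618), and the second probe, with a log2 ratio of -0.30 (adjusted p = 0.353), was not called.

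The second Sult2a4 probe, named Sult2a3 in the study's probe table, lay in another stretch (11 of 25 bases identical with the main Sult2a4 probe at the best offset). It gave smaller ratios of the same direction. Its log2 ratio was -2.41 ± 0.17 in M4/F4, -3.82 in M8/F8, -3.81 in M8/M3 and -2.86 in M8/M4, all called (largest adjusted p = 0.000414). The difference in size between both probes was not tested.

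Sult2a2 had levels of 127000 and 88800 in F3, 78800 and 87400 in F4, 73700 and 89500 in F8, 85200 and 51900 in M3, 8580 and 11800 in M4, and 1650 and 1290 in M8. The F4, F8 and M3 pools overlapped, pool 2 of F3 lay within the F8 range, and the M4 and M8 pools were separate from them and from each other. Female liver exceeded male liver 9.23-fold at 4 wk (log2 ratio -3.21 ± 0.29, adjusted p = 0.00166) and 44.5-fold at 8 wk (-5.48 ± 0.29, adjusted p = 0.000333). In male liver the level decreased 69.6-fold from 3 to 8 wk (-6.12 ± 0.43, adjusted p = 0.000746), a value fitted on 1 array because the spot of M8/M3 replicate 2 was a non-uniformity outlier. The second probe, with values on both arrays of M8/M3 (-7.03 and -5.77), was called there as well (-6.40 ± 0.35, adjusted p = 0.000178). From 4 to 8 wk the male log2 ratio was -3.50 ± 0.29 (11.3-fold, adjusted p = 0.00125). In female liver neither probe was called with age.

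**Figure D3:**
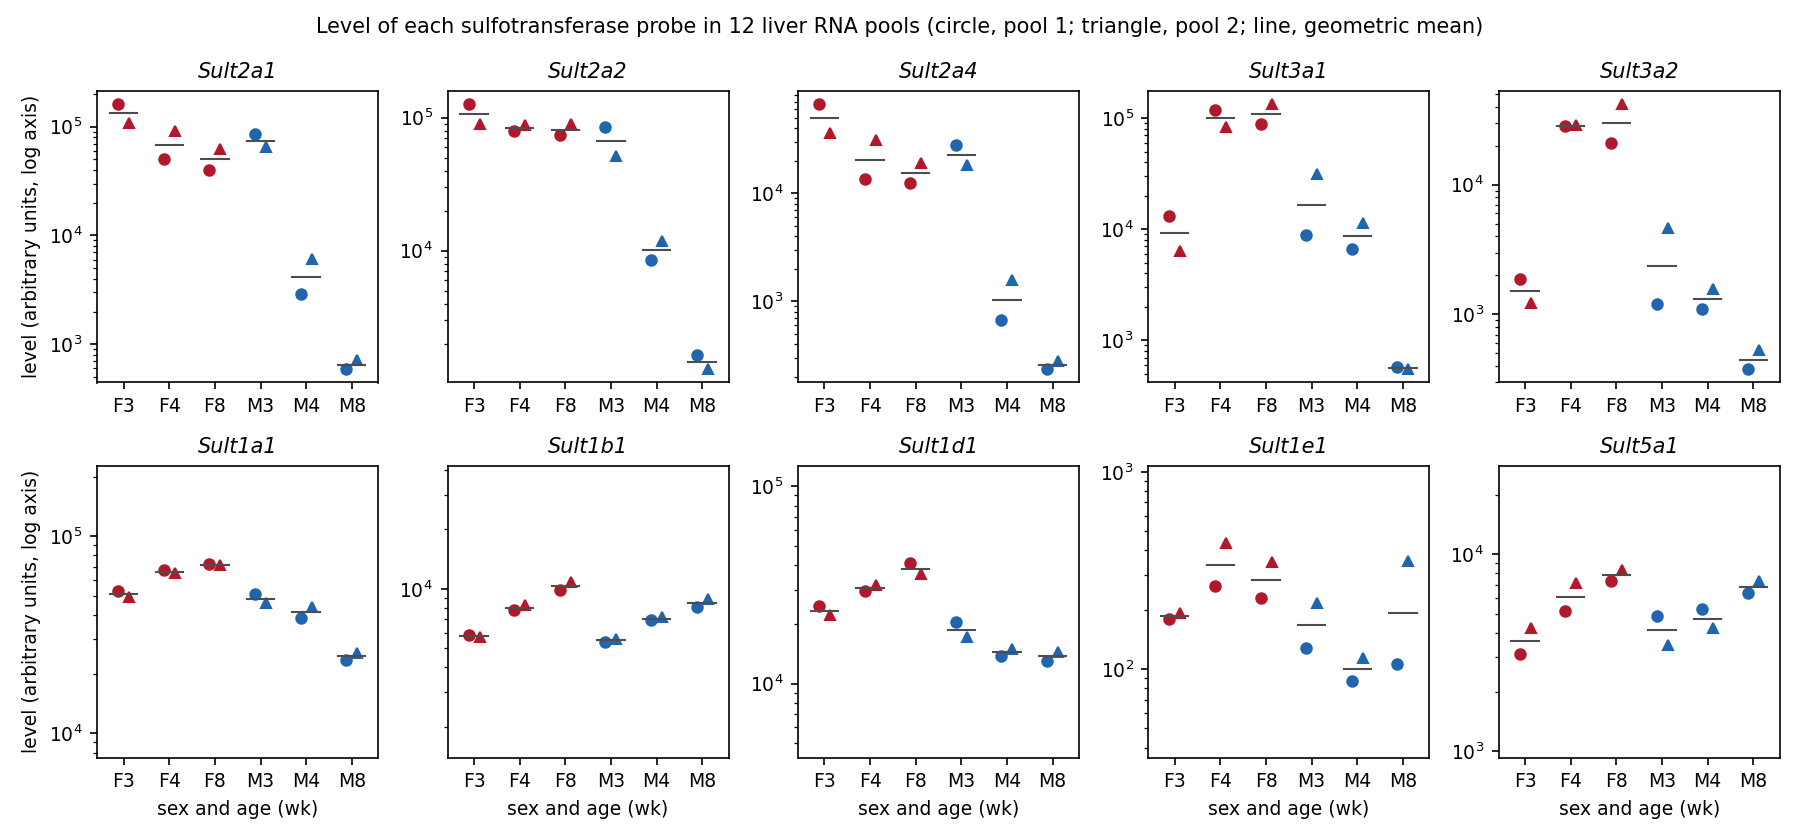
The level of the main probe of each gene (vertical log axis, arbitrary units) is plotted for the 12 RNA pools by sex and age, with circles for pool 1, triangles for pool 2 and lines for the geometric mean. The Sult2a genes descend in male from 3 to 8 wk, the F8 pools of the Sult3a genes lie above the F3 pools, and Sult1b1 ascends with age in both sexes, with scales that differ between panels.

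Sult3a1, an amine sulfotransferase, had the largest sex difference of the 10 genes at 8 wk. Its levels were 13200 and 6360 in F3, 119000 and 82600 in F4, 87900 and 135000 in F8, 8800 and 31200 in M3, 6580 and 11400 in M4, and 572 and 549 in M8. The F4 and F8 pools overlapped and lay above all others, F3, M3 and M4 overlapped, and M8 lay below all others. In M8/F8 the female level was 225-fold higher (log2 ratio -7.40 and -8.23 on the arrays, fitted -7.81 ± 0.82, adjusted p = 0.00155), and the call was kept at -8.61 without M8/F8 replicate 1 and at -7.01 without replicate 2. In M4/F4 it was 15.2-fold higher (-3.93 ± 0.82, adjusted p = 0.0212). At 3 wk the arrays gave -0.81 and 2.18, which are opposite in sign, and the fitted ratio of 0.69 ± 0.82 was not called (adjusted p = 0.751).

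From 3 to 8 wk Sult3a1 changed in opposite directions in the sexes. It was up regulated 14.7-fold in female liver (log2 ratio 3.04 and 4.72 on the arrays, adjusted p = 0.0223) and down regulated 56.1-fold in male liver (-5.33 and -6.30 on the arrays, adjusted p = 0.00476). From 4 to 8 wk the female log2 ratio was 0.05 ± 0.82, with an adjusted p of 1, and the male level decreased 16.3-fold (-4.03 ± 0.82, adjusted p = 0.0193). The call of Sult3a1 in M4/F4 was lost without either M4/F4 array (adjusted p = 0.152 without replicate 1 and 0.106 without replicate 2), that in M8/M4 without M8/M4 replicate 2 (0.187), and that in F8/F3 without F8/F3 replicate 2 (log2 ratio 2.58, adjusted p = 0.216). With the slide as a block the same 3 calls were lost, at adjusted p of 0.0577, 0.0541 and 0.0596.

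Sult3a2, the neighbouring member of that subfamily, had levels of 1880 and 1220 in F3, 28500 and 28700 in F4, 21200 and 42100 in F8, 1200 and 4650 in M3, 1090 and 1580 in M4, and 378 and 534 in M8. The groups were ordered as for Sult3a1, and F3, M3 and M4 again overlapped. Single arrays of M8 ranged from 179 to 1030 in pool 1 and from 213 to 1330 in pool 2. The M8 arrays thus overlapped those of M4, of which the lowest gave 745. Its probe had 10 of 20 overlapping bases identical with that of Sult3a1 at the best offset tried. The female level was 17.3-fold higher at 4 wk (log2 ratio -4.17 and -4.06 on the arrays, adjusted p = 0.0124) and 27.3-fold higher at 8 wk (-4.40 and -5.14, adjusted p = 0.00702). At 3 wk the arrays were again opposite in sign, with -0.34 and 2.61 (adjusted p = 0.424).

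Female Sult3a2 was up regulated 17.3-fold from 3 to 8 wk (log2 ratio 3.32 and 4.89, adjusted p = 0.0125), and male Sult3a2 was down regulated 14.4-fold (-3.83 and -3.87, adjusted p = 0.0161). In M8/M4 the log2 ratios were -1.60 and -3.20, and the fitted -2.40 ± 0.74 did not pass (adjusted p = 0.0838). Calls of Sult3a2 were lost in M4/F4 without replicate 1 (adjusted p = 0.0863) or 2 (0.0896), in M8/M3 without replicate 1 (0.114) or 2 (0.101), in M8/F8 without replicate 2 (0.071) and in F8/F3 without replicate 2 (log2 ratio 3.08, adjusted p = 0.136). With shared pools in the covariance the calls in M4/F4, M8/M3 and F8/F3 were lost as well, at 0.0597, 0.0744 and 0.06.

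Sult1a1, the main phenol sulfotransferase of liver, differed less between the sexes but with a small spread. Its levels were 52500 and 49200 in F3, 67100 and 64800 in F4, 72300 and 71400 in F8, 50700 and 45900 in M3, 38600 and 43900 in M4, and 23700 and 25500 in M8. F3 and M3 overlapped, and all other groups were separate. The log2 ratio was -0.08 ± 0.09 at 3 wk (adjusted p = 0.717), -0.78 ± 0.09 at 4 wk (1.72-fold higher in female, adjusted p = 0.00211) and -1.68 ± 0.09 at 8 wk (3.19-fold, adjusted p = 0.000169). In male liver it was down regulated 2.03-fold from 3 to 8 wk (-1.02 ± 0.09, adjusted p = 0.000803) and 1.67-fold from 4 to 8 wk (-0.74 ± 0.09, adjusted p = 0.00263). In F8/F3 the ratio of 1.43 (adjusted p = 0.0103) was below the threshold of 1.5. The second Sult1a1 probe was called in the same 4 comparisons, with a log2 ratio of -1.56 ± 0.08 in M8/F8, and no call of Sult1a1 between the sexes or in male liver was lost when an array was left out. The error-weighted average, with its stricter threshold of 0.0001 on the unadjusted p, did not call Sult1a1 in M4/F4 (log2 ratio -0.77, unadjusted p = 0.000304).

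Sult1d1, which acts on catecholamines, had levels of 24700 and 22300 in F3, 29500 and 31700 in F4, 40900 and 35900 in F8, 20400 and 17200 in M3, 13800 and 15000 in M4, and 13100 and 14500 in M8. The 3 female groups were separate and above all male groups, and M4 and M8 overlapped. Both arrays were lower in male at 3 wk (-0.38 and -0.35), where the main probe did not pass (adjusted p = 0.101). The second probe gave -0.45 ± 0.07 there, with an adjusted p of 0.00594 and a ratio within the threshold of 1.5. Female liver was 2.17-fold higher at 4 wk (-1.12 ± 0.12, adjusted p = 0.0016) and 2.86-fold higher at 8 wk (-1.52 ± 0.12, adjusted p = 0.000544). The change with age that passed was in female liver, 1.64-fold up in F8/F3 (0.72 ± 0.12, adjusted p = 0.00885). It was lost without F8/F3 replicate 1 (0.0748) or 2 (0.0671), and the second probe did not reach the threshold of 1.5 (0.51 ± 0.07, adjusted p = 0.00375). In male liver the log2 ratio was -0.47 ± 0.12 in M8/M3 (adjusted p = 0.0428), also within that threshold.

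Sult1b1, which sulfates thyroid hormone and phenols, changed with age and not with sex beyond the thresholds. Its levels ranged from 5390 to 5860 in the 4 pools of 3 wk, from 6930 to 8280 at 4 wk and from 8110 to 10900 at 8 wk. Within each sex the pools of 3, 4 and 8 wk did not overlap and lay in the order of age. It was up regulated 1.59-fold in M8/M3 (log2 ratio 0.66 and 0.69 on the arrays, adjusted p = 0.00121) and 1.83-fold in F8/F3 (0.79 and 0.94, adjusted p = 0.000488). Both calls were kept in all 14 fits that left out 1 array. The log2 ratio of the sexes at 8 wk was -0.24 ± 0.07 (adjusted p = 0.0599).

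Sult5a1 had levels from 3130 to 4880 at 3 wk, from 4210 to 7110 at 4 wk and from 6390 to 8330 at 8 wk. The pools of 4 wk overlapped those of 3 and 8 wk, and all pools of 8 wk lay above all pools of 3 wk. It was up regulated 2.07-fold in F8/F3 (log2 ratio 1.15 and 0.95, fitted 1.05 ± 0.24, adjusted p = 0.0291). In M8/M3 the log2 ratios were 0.38 and 1.05, which did not pass (adjusted p = 0.105), although with shared pools in the covariance they did (adjusted p = 0.0476). The female call was lost in 5 of 14 fits that left out 1 array, with a log2 ratio of 0.69 and an adjusted p of 0.263 without F8/F3 replicate 1. The other 4 were those without either array of M8/M3 or of M8/M4, with adjusted p up to 0.0562.

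Sult1e1, the estrogen sulfotransferase, was dim and had the largest SE of the 10 genes (0.90). Its levels were 179 and 192 in F3, 262 and 437 in F4, 230 and 348 in F8, 128 and 217 in M3, 87.3 and 114 in M4, and 352 in M8 pool 2. M8 pool 1 lay below the F3 pools and was not well above background on any of its 3 arrays, and M8 pool 2 was well above background on all 3 of them. The M8/F8 arrays gave -2.52 and 0.01, and the M8/M4 arrays gave -0.16 and 3.14. By the main test Sult1e1 was called in no comparison. In M4/F4, M4 was not well above background on either array, so that the size of the difference is uncertain. The log2 ratios of the arrays were -3.24 and -3.505 (fitted 10.4-fold higher in female), whereas the normalized levels differed 3.25-fold. The fit's adjusted p there was 0.0522, and Sult1e1 was called in M4/F4 under 7 of 15 alternatives that used every array, among them shared pools in the covariance (0.0333).

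The change with age was compared directly between the sexes. From 3 to 8 wk, 7 of 10 members changed differently in male and female liver, all with the lower value in male, against 2.53% of all genes in either direction and 1.32% lower in male. M8 pools enter this difference and the M8/F8 comparison alike. The difference of log2 changes, male minus female, was -9.69 ± 1.16 for Sult3a1 (adjusted p = 0.00876) and -7.96 ± 1.05 for Sult3a2 (0.0122). It was -5.03 ± 0.63 for Sult2a1 (0.0104), -5.45 ± 0.51 for Sult2a2 (0.00743) and -4.82 ± 0.64 for Sult2a4 (0.0123). For Sult1a1 it was -1.53 ± 0.13 (0.00264), and for Sult1d1 it was -1.18 ± 0.17 (0.0146). The fitted female and male changes had opposite signs for Sult3a1, Sult3a2, Sult1a1 and Sult1d1, although the change of Sult1a1 in female and that of Sult1d1 in male liver were not called. Sult1b1 (-0.20 ± 0.09), Sult1e1 (-0.46 ± 1.28) and Sult5a1 (-0.33 ± 0.34) did not pass. With shared pools in the covariance 6 were called, against 1.75% of all genes, and Sult3a2 was lost (adjusted p = 0.0594).

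**Figure D4:**
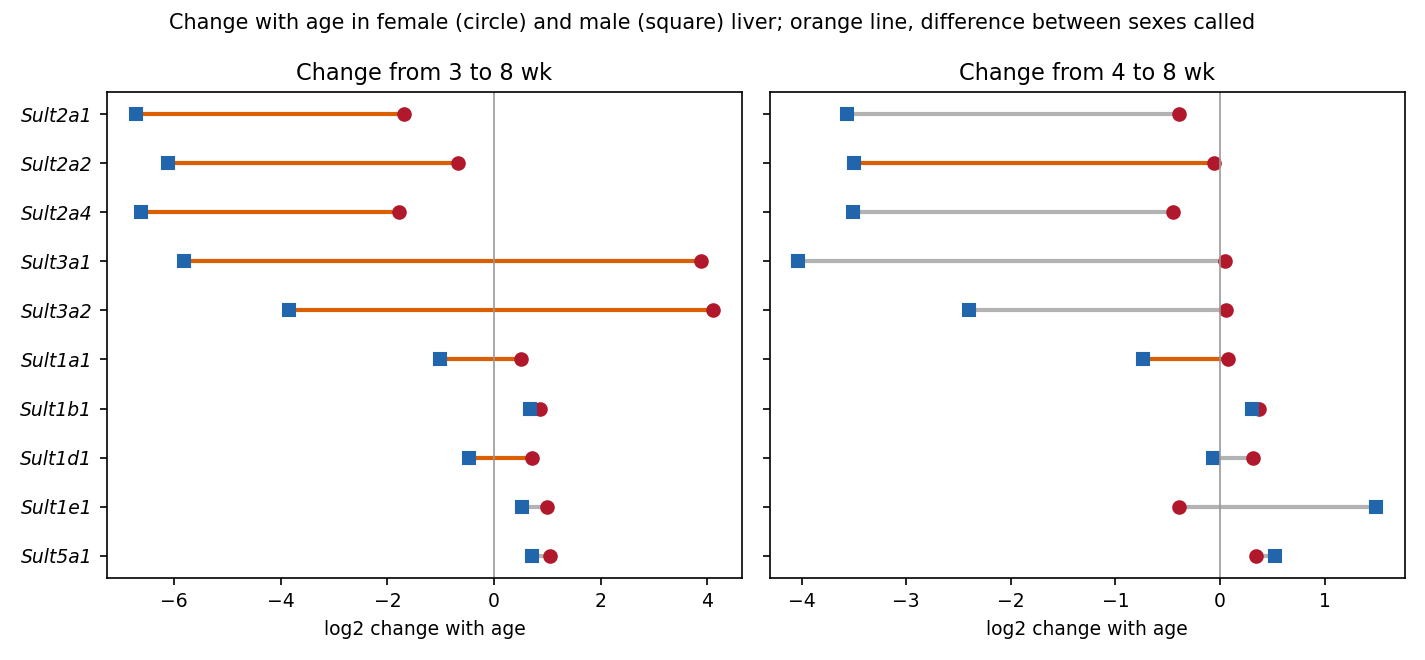
The log2 change with age (horizontal axis) is plotted for each gene over the spans 3 to 8 wk and 4 to 8 wk, with red circles for female and blue squares for male liver, and with an orange line where the difference between the sexes was called. From 3 to 8 wk 7 lines are orange, and those of Sult3a1, Sult3a2, Sult1a1 and Sult1d1 cross 0. From 4 to 8 wk 2 are orange, and all female values lie between -0.45 and 0.37.

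The male and female age arrays of 3 wk were scanned on different days, so that sex and scan day cannot be told apart in that difference. The arrays that compared the sexes were all scanned on the first day, and the same difference could be read from them as M8/F8 minus M3/F3. For pools 1 and 2 this gave -5.41 and -6.03 for Sult2a1, -4.22 and -5.29 for Sult2a2, -5.09 and -5.87 for Sult2a4, -6.59 and -10.41 for Sult3a1, -4.06 and -7.75 for Sult3a2, -1.65 and -1.54 for Sult1a1, and -1.34 and -0.98 for Sult1d1. All 14 values were below 0 within the first day. For Sult3a2 in pool 1 the age arrays gave -7.15, which differed by 3.09 from the sex arrays. The count of 7 became 1, Sult1a1, without M8/M3 replicate 1, where Sult2a2 could not be fitted and the other 5 had adjusted p of 0.0535 to 0.0741. It was 4 without F8/F3 replicate 2, where Sult2a4, Sult3a2 and Sult1d1 were lost.

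From 4 to 8 wk 2 members changed differently in the sexes, Sult2a2 (-3.45 ± 0.41, adjusted p = 0.025) and Sult1a1 (-0.82 ± 0.13, adjusted p = 0.0332), against 1.01% of all genes. Both were lower in male, as were 0.446% of all genes. Sult2a1 (-3.18 ± 0.63, adjusted p = 0.0739), Sult2a4 (-3.07 ± 0.64, 0.0858) and Sult3a1 (-4.07 ± 1.16, 0.186) did not pass, although the second probe of Sult2a4 did (-2.89 ± 0.25, 0.0078). With shared pools in the covariance 0 were called (adjusted p = 0.0623 for Sult2a2 and 0.169 for Sult1a1). Sult2a2 was lost in 7 and Sult1a1 in 12 of 14 fits without 1 array, with adjusted p up to 0.109 and 0.142. With the slide as a block Sult2a2 was lost (0.0554), and without a dye term Sult1a1 was lost (0.0975).

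The step from 3 to 4 wk was not hybridized and was derived through the 8 wk pools. By this path limma called 0 members in male and 0 in female liver, against 0.223% and 0.0709% of all genes. An unadjusted p under 0.05 was found for 4 members in each sex, which were Sult2a1, Sult2a2, Sult2a4 and Sult1b1 in male and Sult3a1, Sult3a2, Sult1a1 and Sult1b1 in female. The derived log2 ratio of M4/M3 was -3.15 ± 0.63 for Sult2a1, and that of F4/F3 was 4.05 ± 1.05 for Sult3a2. The error-weighted average called 2 members in each sex, and the fit with shared pools called 1 in male (Sult2a2, adjusted p = 0.0332) and 0 in female.

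Genes outside the family were ranked by how closely their 14 ratios followed each of the 9 members called in any comparison (Sult1e1 was not), among 3527 genes called in any comparison. The correlations are descriptions, since the arrays share pools and since a correlation ignores the size of the ratios. Slc16a12, a transporter of the monocarboxylate carrier family, was nearest to Sult2a1 (Pearson r = 0.952, root mean square difference 3.95 on the log2 scale) and to Sult2a4 (0.949 and 3.90), and Trdmt1, an RNA methyltransferase, came next for both. Sult2a2 was followed most closely by Fam126a (0.963 and 2.95, over 13 arrays) and Fmo2, a flavin monooxygenase. For Sult3a1 these were Nipal1 (0.986 and 3.24), Cyp3a41b, a cytochrome P450, and Hamp2, a hepcidin gene. Cyp3a41b was nearest to Sult3a2 (0.936 and 2.18). Maob, a monoamine oxidase, was nearest to Sult1a1 (0.979 and 0.39), and Klb, a co-receptor of fibroblast growth factors, to Sult1d1 (0.99 and 0.56), and the steroid hydroxylase Cyp17a1 was the third for Sult1d1. Tbc1d8 was nearest to Sult1b1 (0.979 and 0.13), and Gm128 to Sult5a1 (0.97 and 0.16). The remaining genes among the 3 nearest were Fam126a for Sult2a1, Trdmt1 for Sult2a2, Tox for Sult2a4, and Nipal1 and Trim24 for Sult3a2. For Sult1a1 they were Trim24 (0.978 and 0.28) and Gypc, and for Sult1d1 Rasa3. For Sult1b1 they were Kcnn2 and Eif4a2, and for Sult5a1 Uroc1 and Mir22hg.

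Promoter sequence of 8 of the 10 members was held in the RefSeq table (build GRCm38.p6), and Sult2a1 and Sult2a2 were not among them. The 250 bases before the start of each gene were searched on both strands for 4 sets of letters. TTCNNNGAA, the core of a STAT5 site, was found in Sult3a1 alone among members, and in 7.02% of all 32851 promoters. AGGTCA, a nuclear receptor binding motif, was found in Sult1b1 and Sult1e1, and in 14% of all. TGTTTAC, a forkhead motif, was found in no member, and in 3.17% of all. TCATGAACT, most of an inverted repeat without spacer that nuclear receptors bind in rodent Sult2a genes, was found in Sult2a4 and in the related Sult2a5 and Sult2a6, and in 0.192% of all. The 30 bases around it are shown because this stretch recurs within the subfamily, and capitals mark the searched letters and the base before them. Sult2a8, which is described below, had a promoter in the table without this stretch.
Sult2a4 (chr7:13989809-13989838, minus strand): tttcgaGTCATGAACTtggtctcacaaatt
Sult2a5 (chr7:13623792-13623821, plus strand): ctgatttgggGTCATGAACTtggtctcaca
Sult2a6 (chr7:14255060-14255089, minus strand): ctggtttgtgGTCATGAACTcgggctcaca
These matches describe letters, and binding was not measured.

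Other genes of sulfation were followed in lists of family members, PAPS synthesis and breakdown, sulfate supply, sulfatases and regulators. Of 43 genes listed, 38 were on the array and 13 were called in at least 1 comparison, against 17.9% of all genes. Among 8 further sulfotransferases measured, of which 4 were bright enough in each comparison, 3 were called. Sult2a6 matched the Sult2a pattern, with log2 ratios of -3.21 ± 0.31 in M4/F4, -4.89 in M8/F8, -5.14 in M8/M3 and -3.22 in M8/M4 (adjusted p up to 0.00116) and -0.75 in F8/F3, which did not pass. As shown above, its probe is nearly that of Sult2a2. Sult2a8, in contrast, was up regulated with age, by 1.30 ± 0.14 in M8/M3, 1.03 in M8/M4 and 0.69 in F8/F3. Sult1c2 was higher in female at 8 wk (-1.04 ± 0.17, adjusted p = 0.00797) and up regulated in female liver by 1.01 in F8/F3 and 0.88 in F8/F4.

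Papss2, which makes PAPS, was the 1 gene called in any comparison among 5 of the PAPS list, a share near the 17.9% of all genes. Its log2 ratio was -0.18 ± 0.13 in M3/F3, -0.93 in M4/F4 (adjusted p = 0.00427) and -1.48 in M8/F8 (adjusted p = 0.000779). It was up regulated in F8/F3 (0.69 ± 0.13, adjusted p = 0.0136). Both arrays of M8/F8 were lower in male (-1.83 and -1.13).

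In the sulfate supply list 3 of 8 genes were called in any comparison, against 17.9% of all genes. Cdo1, which oxidizes cysteine, rose in M8/M3 (0.65 ± 0.06) and F8/F3 (0.59 ± 0.06). Csad, which diverts the product to taurine, was higher in male at 4 wk (1.18 ± 0.17, adjusted p = 0.00489) and 8 wk (1.80, adjusted p = 0.000989). Got1, an aspartate aminotransferase, was higher in female at 4 wk (-0.92 ± 0.13) and 8 wk (-1.66, adjusted p = 0.000502). Of 5 sulfatase genes 1 was called in any comparison, a share near that of all genes. It was Arsa, with 1.03 ± 0.20 in M8/F8 and 1.19 in M8/M3.

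Of 12 regulators, 0, 1 and 3 were called between the sexes at 3, 4 and 8 wk, where 0.349%, 1.05% and 4.38% of all genes were called. With age, F8/F3 had 1 (8.75% of all genes) and F8/F4 had 0 called (4.53%), while M8/M3 had 4 (13.1%) and M8/M4 had 2 (8.18%). Prlr, the prolactin receptor, was lower in male at 4 wk (-0.64 ± 0.12, adjusted p = 0.0157) and 8 wk (-1.68, adjusted p = 0.000439) and fell in male liver (-1.63 in M8/M3). Esr1, the estrogen receptor, was lower in male at 8 wk (-1.50 ± 0.15, adjusted p = 0.00116) and fell in M8/M3 (-1.25) and M8/M4 (-0.87). Nr1i3, the receptor CAR, was higher in female at 8 wk (-0.62 ± 0.08, adjusted p = 0.00383) and rose in F8/F3 (0.82). Ahr fell (-0.71) and Ghr, the growth hormone receptor, rose (0.61) in M8/M3. The other 7 regulators, among them Stat5b, Hnf4a and Nr1i2, were not called.

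**Figure D5:**
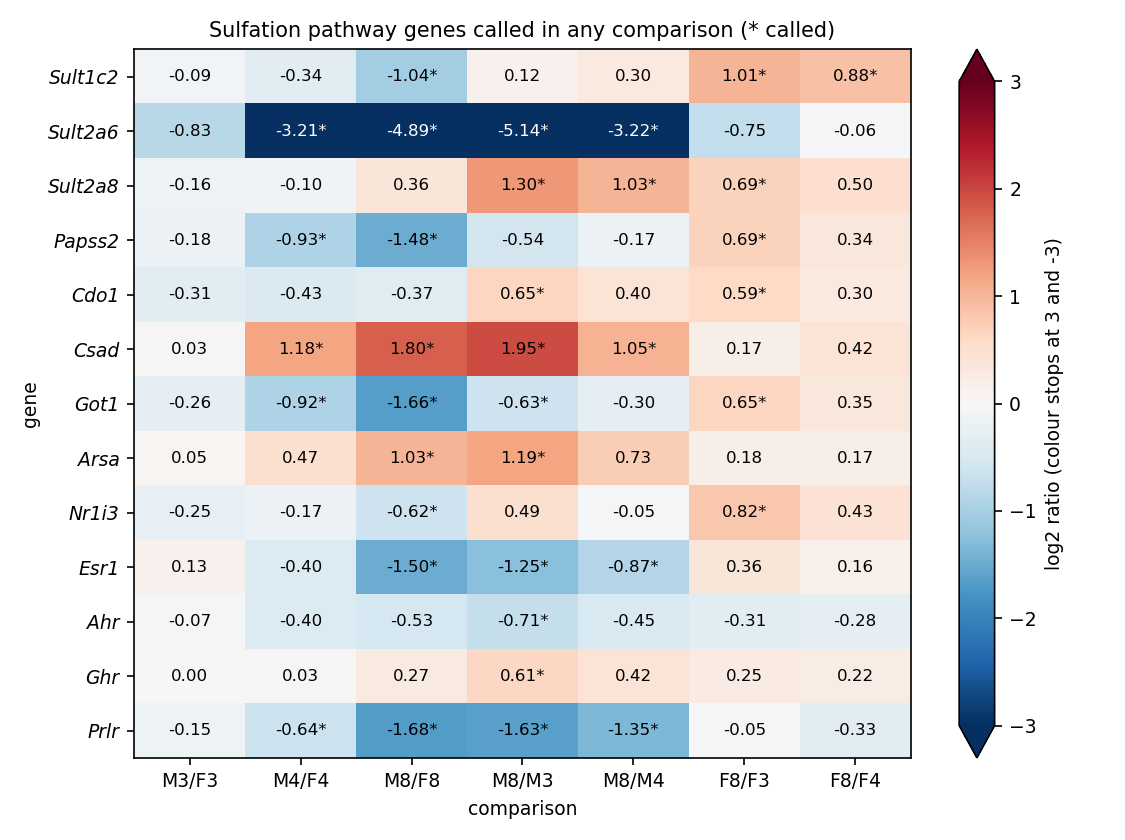
The log2 ratio of each of the 13 called genes of sulfation (rows) is given in each of the 7 comparisons (columns) by colour, which stops at 3 and -3, and by its printed value, with an asterisk where called. M8/F8 holds 9 asterisks, of which those of Csad and Arsa are above 0, and M3/F3 holds none.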

How the data were processed

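Hepatic RNA pools were labelled with a green or a red Alexa dye and hybridized in pairs, and the authors scanned the arrays and extracted them with Feature Extraction 10.7.1.1 (array design 026655), which subtracts background and normalizes the dyes by linear and LOWESS steps. The deposited log ratio of each spot is a log10 ratio of red over green, and the deposited log ratio error is a score from the software's error model. The deposited median intensities are not normalized, while the deposited processed intensities are background subtracted and dye-normalized. The deposited flags mark spots that are well above background, saturated or outliers. The deposited table of the series held the same log10 ratios (largest difference 0).

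Log10 ratios were converted to log2, turned to male over female or older over younger, and averaged per probe without control spots and non-uniformity outliers. Before outliers were removed, 43020 spots per array remained. One model with 7 comparisons and a dye term was fitted to all probes with limma 3.58.1 in R 4.3.3, and p-values were adjusted by Benjamini-Hochberg over all probes and comparisons, or within each derived contrast. The study used the error model of other software, which was not available. The probe with the highest mean signal stood for a gene. Levels were computed from the median intensities by normexp with an offset of 50, loess and Aquantile normalization. The samples were grouped by the sex and age in the labels, and the 2 arrays of a comparison used separate pools. The named genes were the 10 members, the called genes of the sulfation lists and the 3 genes nearest to each of the 9 members called in any comparison. The members and lists were chosen with earlier results of these data known. The fit was tested on simulated data with independent noise for each array. The simulation held no shared pools, so that its error rate with shared pools was not tested. Same-numbered pools recurred across comparisons, and the replicate 1 minus replicate 2 difference, in which the mean effect and the dye effect cancel, correlated between the age arrays and the sex arrays that link the same pools of 3 and 8 wk (r = 0.882 over 21683 probes). Alternatives of weighting, normalization, filter, blocks and left-out arrays are given at the end.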

Additional observations from a re-analysis of the deposited data

Results flagged for a closer look

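The change with age differed between male and female liver by the test of the difference itself for 7 of 10 genes between 3 and 8 wk, against 2.53% of all genes, and for 2 between 4 and 8 wk, against 1.01%. With shared pools in the covariance 6 and 0 were called (adjusted p = 0.0594 for Sult3a2 in the former span, and 0.0623 for Sult2a2 and 0.169 for Sult1a1 in the latter). From 3 to 8 wk the male minus female log2 change was -5.03 for Sult2a1, -5.45 for Sult2a2, -4.82 for Sult2a4, -9.69 for Sult3a1, -7.96 for Sult3a2, -1.53 for Sult1a1 and -1.18 for Sult1d1. From 4 to 8 wk it was -3.45 for Sult2a2 and -0.82 for Sult1a1. Single pools that stand apart within a group of 2 pools were not tested.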

How the results depend on the processing

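No ratio called for a member changed direction under any alternative run. Over 11 alternatives that used every array, leaving aside those that changed only the filters on ratio, brightness or probe, the 41 called ratios gave 451 values, of which 412 kept the call and 39 lost it, 19 of these where limma's unadjusted p had to be below 0.0001. That rule left 1 member in F8/F3, 2 in M8/M4, and 3 and 0 in the difference between the sexes from 3 to 8 and from 4 to 8 wk. The error-weighted average, which comes nearest to the study's error model, called 1 in M3/F3, 2 in the derived M4/M3, 2 in the derived F4/F3 and 4 in the difference from 4 to 8 wk, and it added Sult1e1 in M4/F4 but did not call Sult1a1 in M4/F4, Sult3a1 in M8/M4 or Sult2a4 in F8/F3. With 6 group means in place of 7 comparisons, 2 were called in M3/F3, 3 in M4/M3, 1 in F4/F3 and 5 from 4 to 8 wk. With shared pools in the covariance, 1 was called in M4/M3 and 0 from 4 to 8 wk. From 4 to 8 wk 1 was called without a dye term and 1 with the slide as a block. Without a threshold on the ratio 1 member was called in F8/F4, and 22 sulfation genes were called in any comparison. The cause of these differences was not tested, beyond the thresholds themselves. Over the 14 fits without 1 array, 572 values of called ratios included 58 lost calls. Counts then ranged from 0 to 0 in M3/F3, 5 to 8 in M4/F4 and 6 to 7 in M8/F8, from 3 to 5 in F8/F3 and 0 to 0 in F8/F4, and from 5 to 7 in M8/M3 and 4 to 6 in M8/M4. They ranged from 1 to 7 for the difference from 3 to 8 wk and from 0 to 2 for that from 4 to 8 wk, and the sulfation genes from 11 to 14. F8/F3 had 3 without its replicate 1. The replicate block, for which the pairing comes from the reuse of same-numbered pools, gave 8 members in M4/F4, with Sult1e1 added, and 5 in F8/F3, with Sult2a4 lost. It changed no other call of a member. Sult1e1 was also called in M4/F4 with the slide as a block, normexp and loess, no dye term, 6 group means and shared pools. Adjustment within each comparison lost Sult3a1 (adjusted p = 0.0917) and Sult3a2 (0.0638) in M4/F4 and added Sult2a1 in F8/F3. Only 2 pools per group and signals near background, as for Sult1e1, limit the precision.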
